A study of Mus musculus with 8 samples.

Results

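The transcript levels of 9 hepatocyte identity transcription factors were examined in primary hepatocytes of the mouse, with or without Yap and Taz, after culture on a soft or a stiff hydrogel. The 9 genes were Hnf4a, Foxa1, Foxa2, Foxa3, Cebpa, Cebpb, Onecut1, Prox1 and Nr5a2, chosen by name from a table of 56748 genes. All 9 of 9 passed the filter on low counts, as did 14279 genes in all. Every mouse carried floxed Yap and Taz alleles (Yap fl/fl, Taz fl/fl) together with the Cre-dependent tdTomato reporter ROSA26-LSL-tdTomato, on the C57BL/6J background. Wild-type (WT) hepatocytes came from animals given AAV8-TBG-Null, and knockout (KO, Yap/TazHepKO) hepatocytes from animals given AAV8-TBG-Cre, in which the hepatocyte-specific TBG promoter drives Cre. The virus was injected at 7 to 8 weeks of age, hepatocytes were isolated after 10 days, and RNA was prepared after 24 h on collagen-coated polyacrylamide hydrogels of 1 kPa (soft) or 20 kPa (stiff). The 4 groups, WT soft, WT stiff, KO soft and KO stiff, had 2 libraries each. The sources do not say which libraries came from separate animals, so the p-values measure the spread between these libraries, which may be technical. The series' design text gives female mice, while the label on cell growth and the authors' methods give male mice. In every library Xist had between 4818 and 8443 counts and the Y-linked genes Ddx3y, Kdm5d, Uty and Eif2s3y had 0. This is the pattern of RNA from female cells.

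Hepatocyte identity is held by a small network of transcription factors that bind together at liver enhancers and promote each other's expression. HNF4A, a nuclear receptor, is its central member and drives genes of lipid transport, coagulation and bile acid synthesis. The FOXA proteins open compacted chromatin for other factors, the C/EBP proteins act on gluconeogenesis, the urea cycle and the acute-phase response, and ONECUT1, PROX1 and NR5A2 act in liver development and in bile acid and energy metabolism. YAP and TAZ, encoded by Yap1 and Wwtr1, are coactivators that enter the nucleus on stiff substrates and act mainly through TEAD factors.

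The promoters of the 4 factors that fell on the stiff hydrogel in WT cells (Hnf4a, Foxa3, Cebpa and Prox1) are shown so that their sequence can be set beside their levels. Added is 1 promoter of Nr5a2, because it held the only TEAD motif among the promoter windows of the 9 genes. Each run is the 250 bases before a RefSeq transcription start, 5′ to 3′ along the gene's strand, in GRCm38.p6 coordinates. Capitals mark motif matches on either strand. The Hnf4a windows are chr2:163506607-163506856 and chr2:163546905-163547154 on the plus strand. The Foxa3 window is chr7:19023540-19023789 on the minus strand, and the Cebpa window is chr7:35119043-35119292 on the plus strand. The Prox1 windows are chr1:190170828-190171077 and chr1:190169516-190169765, and the Nr5a2 window is chr1:136953631-136953880, all on the minus strand.
Hnf4a, upstream start: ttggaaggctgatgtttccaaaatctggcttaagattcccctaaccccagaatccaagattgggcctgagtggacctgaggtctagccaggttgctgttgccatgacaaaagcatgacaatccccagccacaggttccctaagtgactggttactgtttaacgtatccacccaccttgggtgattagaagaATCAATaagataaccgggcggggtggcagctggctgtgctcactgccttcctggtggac
Hnf4a, downstream start: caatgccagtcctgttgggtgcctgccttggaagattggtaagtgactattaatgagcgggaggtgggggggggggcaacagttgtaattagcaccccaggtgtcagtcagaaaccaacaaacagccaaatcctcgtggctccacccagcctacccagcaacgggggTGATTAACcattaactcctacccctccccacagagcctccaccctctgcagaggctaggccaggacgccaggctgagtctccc
Foxa3: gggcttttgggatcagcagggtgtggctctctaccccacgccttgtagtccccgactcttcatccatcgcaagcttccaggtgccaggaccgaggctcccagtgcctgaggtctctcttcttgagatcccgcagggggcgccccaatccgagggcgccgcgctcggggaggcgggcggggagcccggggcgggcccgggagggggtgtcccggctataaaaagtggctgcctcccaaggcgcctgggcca
Cebpa: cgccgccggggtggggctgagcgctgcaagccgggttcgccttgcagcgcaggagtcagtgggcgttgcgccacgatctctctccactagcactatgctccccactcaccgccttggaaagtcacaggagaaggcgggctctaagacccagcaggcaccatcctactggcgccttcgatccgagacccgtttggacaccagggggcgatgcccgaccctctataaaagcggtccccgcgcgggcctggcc
Prox1, upstream start: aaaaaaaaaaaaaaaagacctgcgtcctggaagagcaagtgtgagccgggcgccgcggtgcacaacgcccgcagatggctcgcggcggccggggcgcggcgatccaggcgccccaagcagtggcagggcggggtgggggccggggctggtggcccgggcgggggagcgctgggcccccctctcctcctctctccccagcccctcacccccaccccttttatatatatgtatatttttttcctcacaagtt
Prox1, downstream start: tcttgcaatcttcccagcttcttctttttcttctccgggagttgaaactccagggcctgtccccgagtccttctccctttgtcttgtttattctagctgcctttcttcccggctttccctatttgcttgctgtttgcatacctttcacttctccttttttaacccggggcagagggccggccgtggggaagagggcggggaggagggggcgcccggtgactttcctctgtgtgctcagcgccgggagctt
Nr5a2, downstream start: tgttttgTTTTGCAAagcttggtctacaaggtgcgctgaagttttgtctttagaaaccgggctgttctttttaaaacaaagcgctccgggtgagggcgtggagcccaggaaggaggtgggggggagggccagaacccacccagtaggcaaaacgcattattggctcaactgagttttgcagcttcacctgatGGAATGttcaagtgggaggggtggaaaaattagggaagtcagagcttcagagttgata

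All 9 genes were found in the promoter table, with 14 windows in total. The 7 motifs searched were GGAATG for TEAD, CAAAGTCCA for HNF4, TGTTTAC for FOXA, TTGCNNAA for C/EBP, GTTAATNA for HNF1, ATTGAT for ONECUT and CAAGGTCA for NR5A, where N is any base. They gave 7 matches in 6 of the 14 windows, and no matches overlapped. The TEAD motif was found in 1 of the 14 windows, against 12.6% of all 32851 promoter windows of the same length. That match lay 58 to 53 bases before the downstream start of Nr5a2, a gene that was called in no comparison. Sequence outside these windows was not searched, and binding was not tested. The same Nr5a2 window held a C/EBP match, found in 9.56% of all windows, and the other Nr5a2 window and the downstream Hnf4a window each held an HNF1 match, found in 2.33% of all windows. The upstream Hnf4a window and 1 of the Foxa2 windows held an ONECUT match, found in 6.72% of all windows, and the Foxa1 window held a FOXA match, found in 3.17%. The HNF4 and NR5A motifs were in none of the 14 windows, against 0.384% and 1.33% of all windows. The windows of Foxa3, Cebpa and Prox1 held none of these letters.

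The libraries held between 18324083 and 26442310 counts, and a count of 0 allows up to 3 counts, or 0.113 to 0.164 CPM (counts scaled to the library total), for counting error only. Among the targeted genes, Yap1 had 2591 and 1720 counts in WT soft, 2913 and 2651 in WT stiff, 747 and 640 in KO soft and 606 and 634 in KO stiff. Wwtr1 had 1103 and 748, 1325 and 1284, 410 and 333, and 335 and 277 counts in the same order. Thus both were lower in every KO library than in every WT library and neither was near 0. The authors reported the deletion of Yap/Taz in hepatocytes from immunoblots. The YAP/TAZ target genes Ccn1 and Ccn2 rose on the stiff hydrogel in WT cells by 1.72 and 3.32 on the log2 scale (edgeR adjusted p = 3.54e-15 and 2e-17). In KO cells their log2 fold changes were 0.02 and -0.05 (edgeR adjusted p = 0.958 and 0.924). Hepatocyte markers such as Alb and Ttr summed to between 61000 and 92500 CPM in all libraries, far above the lists for other cell types. Markers of stellate cells, endothelial cells and Kupffer cells summed to between 24.9 and 125 CPM per list.

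To learn which of the 9 factors are abundant in these cells, levels were set on a per-length scale (CPM per kilobase of gene length). On this scale Hnf4a was the most abundant of the 9 in WT soft, with 77.0 ± 1.96 (SD, n = 2). Cebpb followed with 51.4 ± 15.6, then Cebpa with 34.3 ± 3.85 and Foxa3 with 31.6 ± 1.29. Cebpa and Foxa3 did not differ beyond the range of their libraries. Foxa2 had 15.2 ± 0.432, Nr5a2, Prox1 and Foxa1 lay between 5.15 and 5.62 in overlapping ranges, and Onecut1 was lowest with 0.239 ± 0.00634 CPM per kilobase. The order was like that in both KO groups, with Hnf4a at 87.7 ± 0.818 in KO soft and 88.1 ± 3.45 in KO stiff. In WT stiff the order changed at the top and near the bottom: Cebpb (43.6 ± 2.15) stood above Hnf4a (39.2 ± 0.965), Foxa3 (20.3 ± 0.338) above Cebpa (17.2 ± 1.17), and Foxa1 (4.27 ± 0.505) above Prox1 (2.73 ± 0.112), in each case with no overlap of the libraries.

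**Figure D1:**
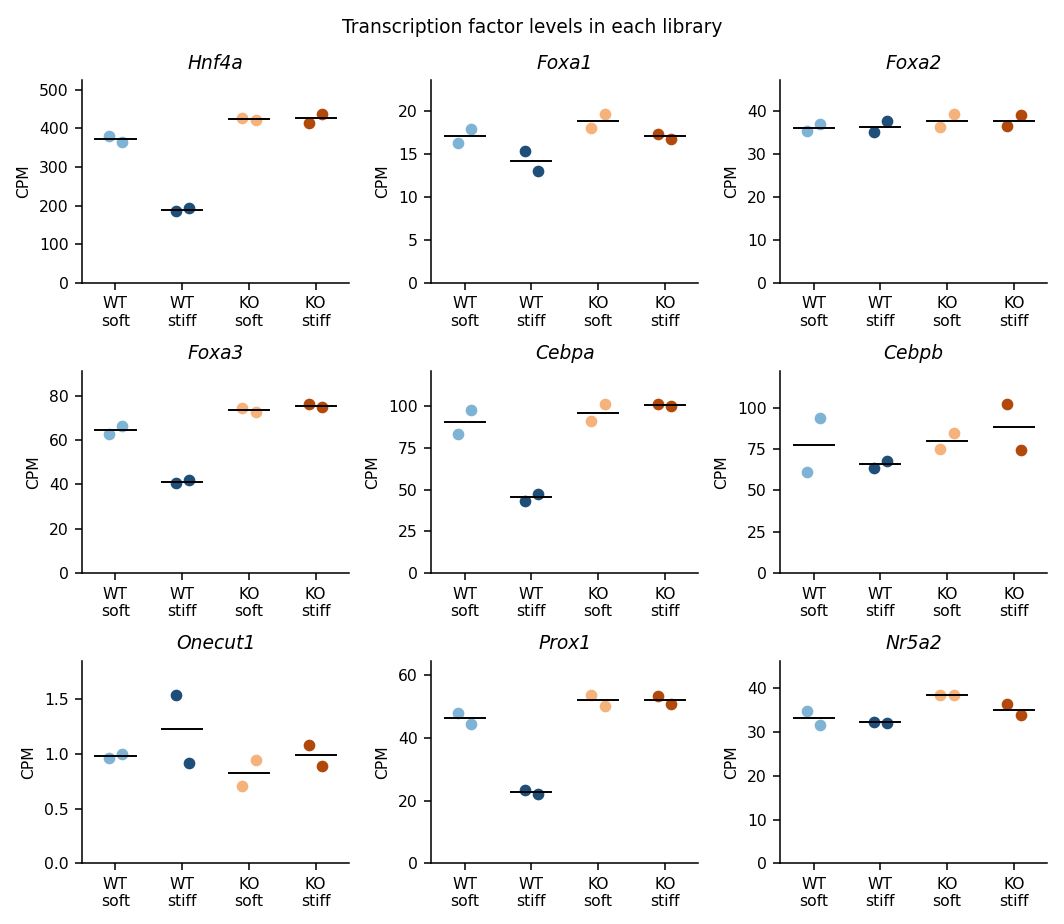
Level of each of the 9 transcription factors in every library, as CPM on a linear axis from 0 that differs between panels; points are single libraries (2 per group) and lines are group means. Hnf4a, Foxa3, Cebpa and Prox1 were lower in both WT stiff libraries than in the other 6, while the group means of Foxa2 lay between 36.0 and 37.7 CPM.

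To ask which factors respond to substrate stiffness, stiff was compared with soft within WT cells. Hnf4a, Cebpa, Prox1 and Foxa3 fell on the stiff hydrogel, the first 3 to between 0.494 and 0.509 of their soft level, and none of the 9 rose. Foxa1, Foxa2, Cebpb, Onecut1 and Nr5a2 did not pass the test. A gene was called when its edgeR adjusted p was under 0.05 and its absolute log2 fold change over 0.5. By this rule 4 of 9 members were lower and 0 higher, against 19.3% of all tested genes called in this comparison, 9.26% lower and 10.0% higher. The 0 higher members stand beside 0 higher at an unadjusted p under 0.05 and 0 higher by DESeq2. The median log2 fold change of the 9 members was -0.27, against -0.01 over all tested genes. In RNA from whole cultures, fewer cells of a type and less RNA per cell cannot be told apart.

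Hnf4a (ENSMUSG00000017950, at 2:163348728-163414830 on the plus strand in the deposited table) had 9829 and 6575 counts in WT soft and 3856 and 3789 in WT stiff. This gave 372 ± 9.46 CPM in WT soft and 189 ± 4.66 CPM in WT stiff (SD, n = 2), with no overlap. The log2 fold change was -0.98 with a standard error of 0.042 (edgeR adjusted p = 2.44e-12), a level of 0.509 of that on the soft hydrogel with a 95% interval from 0.478 to 0.541. Of the 14279 tested genes it ranked 1678 by the size of its change. The counts sum over the upstream and the downstream promoter, the second of which is the main one in adult liver, and do not separate them.

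Prox1 (ENSMUSG00000010175, 1:189850232-189902911, minus strand), a homeobox gene needed for liver growth in the embryo and for lymphatic vessels, had 1247 and 799 counts in WT soft and 488 and 437 in WT stiff. It fell by 1.02 on the log2 scale, with a standard error of 0.073 (edgeR adjusted p = 2.33e-09), to 0.494 of the soft level (95% interval 0.444 to 0.550). Its rank by size of change was 1576, the highest of the 9. Since Prox1 also marks lymphatic endothelial cells, their markers were checked. Pdpn had between 0 and 4 counts in the 8 libraries. Lyve1 was at 1.67 ± 1.18 CPM in WT soft and 1.12 ± 0.146 in WT stiff, with 2.87 ± 0.407 in KO soft and 3.10 ± 0.189 in KO stiff, and did not pass the test in WT (edgeR adjusted p = 0.209). Of the 9 endothelial markers tested, Kdr (-0.57), Stab2 (-0.72), Clec4g (-1.40) and Erg (-1.14) fell on the log2 scale in WT stiff, as Prox1 did, and Flt4 rose (0.74). The part of endothelial cells in the Prox1 level was not tested. The antisense gene Prox1os had a mean of 21.1 counts.

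Cebpa (ENSMUSG00000034957, 7:34818718-34821353, plus strand), which drives gluconeogenic and urea cycle genes in the adult liver, had 2160 and 1756 counts in WT soft and 895 and 935 in WT stiff. It fell by 0.99 on the log2 scale, with a standard error of 0.075 (edgeR adjusted p = 5.08e-09), to 0.503 of the soft level (95% interval 0.451 to 0.561). Cebpb (ENSMUSG00000056501, 2:167530835-167532338, plus strand), the relative linked to the acute-phase response and regeneration, had 1578 and 1692 counts in WT soft and 1314 and 1337 in WT stiff. Its CPM differed more between the 2 WT soft libraries (60.8 and 94.0) than between the group means (77.4 and 65.6), and its log2 fold change was -0.22 with a 95% interval from -0.54 to 0.09 (edgeR adjusted p = 0.25). The value rests on single libraries: without WT soft replicate 1 it was called lower (-0.51, edgeR adjusted p = 0.00166), and without WT soft replicate 2 its log2 fold change was 0.11. Its annotation also shares 908 bases with Peds1, an antisense gene with a mean of 849 counts. The labels describe both a directional and a non-directional library protocol, and how strand entered the counting was not given, so the Cebpb counts are uncertain.

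The balance between both C/EBP genes was not the same in all groups. The per-length ratio of Cebpb to Cebpa was 1.28 and 1.69 in WT soft and 2.57 and 2.51 in WT stiff. It was 1.44 and 1.47 in KO soft and 1.77 and 1.30 in KO stiff. Both WT stiff libraries thus lay above the other 6, a description for which no test was made.

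The 3 FOXA genes differed from one another. Foxa3 (ENSMUSG00000040891, 7:18747209-18757463, minus strand) had 1625 and 1194 counts in WT soft and 846 and 822 in WT stiff. It fell by 0.64 on the log2 scale, with a standard error of 0.059 (edgeR adjusted p = 6.62e-08), to 0.641 of the soft level (95% interval 0.589 to 0.699). Foxa2 (ENSMUSG00000037025, 2:147884797-147888889, minus strand), a pioneer factor that also acts on fasting metabolism, had 917 and 662 counts in WT soft and 725 and 741 in WT stiff. Its log2 fold change was 0.01 with a 95% interval from -0.14 to 0.17 (edgeR adjusted p = 0.92), which does not reach that of Foxa3 (-0.76 to -0.52). Foxa1 (ENSMUSG00000035451, 12:57587414-57593702, minus strand), which with Foxa2 starts liver development, had 422 and 324 counts in WT soft and 319 and 256 in WT stiff. Its log2 fold change was -0.27 (standard error 0.11, edgeR adjusted p = 0.0673), with lower CPM in both stiff libraries. Of the summed FOXA level per length, Foxa3 made up 60.8% and 60.9% in WT soft and 50.8% and 50.9% in WT stiff, while Foxa2 went from 29.5% and 29.0% to 37.4% and 39.4%. In the 4 KO libraries the Foxa3 share was between 61.4% and 64.5%.

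**Figure D2:**
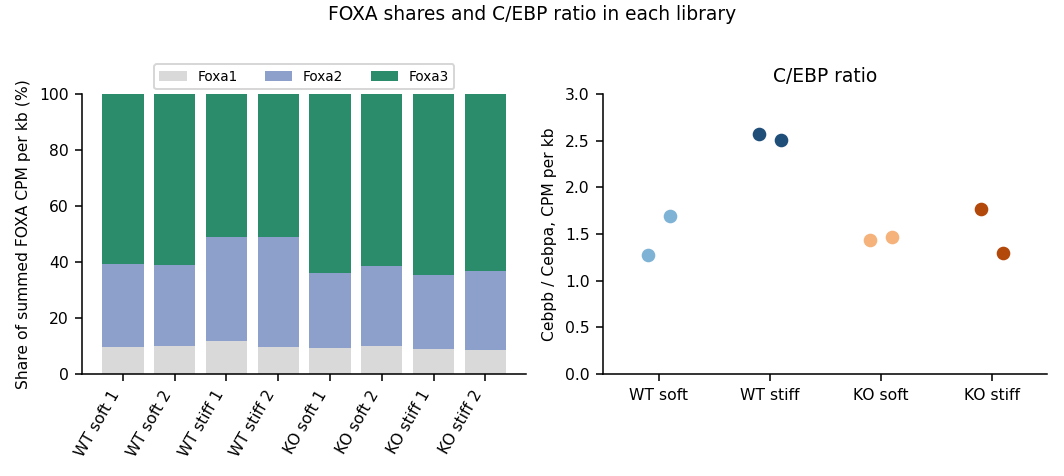
Left, share of Foxa1, Foxa2 and Foxa3 in their summed CPM per kilobase in each library (stacked bars, percent); right, ratio of Cebpb to Cebpa CPM per kilobase, 1 point per library. The WT stiff libraries had the lowest Foxa3 shares (50.8% and 50.9%) and the highest C/EBP ratios (2.57 and 2.51).

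Nr5a2 (ENSMUSG00000026398, 1:136770309-136888186, minus strand), known as LRH-1 and a regulator of bile acid synthesis, had 903 and 567 counts in WT soft and 670 and 630 in WT stiff. Its log2 fold change was -0.05 with a 95% interval from -0.20 to 0.11 (edgeR adjusted p = 0.654), and the groups overlapped. Onecut1 (ENSMUSG00000043013, 9:74769203-74799063, plus strand), or HNF6, which acts in hepatoblasts and bile ducts, had 25 and 18 counts in WT soft, 32 and 18 in WT stiff, 18 and 19 in KO soft and 23 and 18 in KO stiff. Its log2 fold change in WT was 0.33 with a 95% interval from -0.53 to 1.19 (edgeR adjusted p = 0.558), so that changes within this interval were not detectable at this depth. Its level is uncertain for another reason: 54.2% of the 64-base windows of its longest transcript also occur in Gm20649, annotated on the same strand and listed with 0 counts in all 8 libraries. How reads that match both genes were counted was not given. For the other members this share was 0 except for Prox1 (0.892%, with Prox1os).

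To ask whether the changes depend on Yap and Taz, the same comparison was made in KO cells. Hnf4a had 10920 and 8457 counts in KO soft and 8835 and 8851 in KO stiff, and Cebpa had 2330 and 2025 and then 2149 and 2025. Prox1 had 1379 and 1008 counts in KO soft and 1140 and 1028 in KO stiff, and Foxa3 had 1912 and 1464 and then 1628 and 1516. In CPM, Hnf4a, Cebpa and Prox1 overlapped between both hydrogels, and Foxa3 was slightly higher on the stiff one (75.6 ± 0.949 against 73.7 ± 1.28). The log2 fold changes were 0.01 for Hnf4a (95% interval -0.08 to 0.09), 0.07 for Cebpa (-0.08 to 0.22), 0.00 for Prox1 (-0.14 to 0.14) and 0.04 for Foxa3 (-0.08 to 0.15). None of these intervals reached the change of the same gene in WT cells.

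The remaining 5 members in KO cells had the following counts. Cebpb had 1916 and 1698 in KO soft and 2176 and 1507 in KO stiff, Foxa2 926 and 789 and then 778 and 788, and Foxa1 465 and 397 and then 372 and 339. Nr5a2 had 987 and 775 counts in KO soft and 774 and 684 in KO stiff, with a log2 fold change of -0.14 (95% interval -0.29 to 0.02). By edgeR 0 of the 9 members were called in KO cells, with 0 at an unadjusted p under 0.05 and 0 by DESeq2. Of all tested genes 0.0210% were called in this comparison, which is 3 genes, so that a count of 0 among 9 is near the background.

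**Figure D3:**
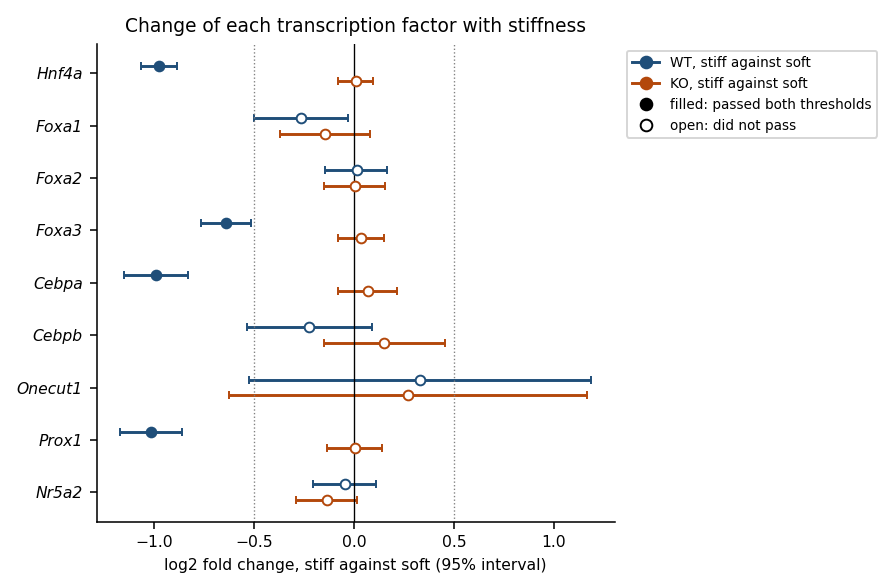
Log2 fold change of each transcription factor on stiff against soft hydrogel in WT (blue) and KO (orange) cells, with 95% intervals from the edgeR fit; filled points passed both thresholds and dotted lines mark the fold threshold of 0.5. Prox1 (-1.02), Cebpa (-0.99), Hnf4a (-0.98) and Foxa3 (-0.64) passed in WT, and all 9 KO intervals include 0.

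The difference between both genotypes was tested as an interaction, where a positive value means that the gene fell less or rose more with stiffness in KO than in WT cells. The interaction was positive and called for the 4 factors that fell in WT, and the other 5 were not called. It was 1.06 for Cebpa (standard error 0.10, edgeR adjusted p = 2.85e-07) and 1.02 for Prox1 (standard error 0.099, edgeR adjusted p = 2.76e-07). It was 0.98 for Hnf4a (standard error 0.059, edgeR adjusted p = 5.29e-10) and 0.68 for Foxa3 (standard error 0.080, edgeR adjusted p = 3.63e-06). The count of 4 of 9 stands against 16.8% of all tested genes called for the interaction, 8.64% in the positive direction. For Cebpb the interaction was 0.38 with a 95% interval from -0.06 to 0.81 (edgeR adjusted p = 0.192), and it was called without WT soft replicate 1 (0.65) or without KO stiff replicate 2 (0.57). Foxa1, Foxa2, Nr5a2 and Onecut1 lay between -0.09 and 0.12 and were not called.

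Between the genotypes, the factors differed mainly on the stiff hydrogel. These comparisons use the same libraries as those above and so are not independent of them. On the stiff hydrogel Prox1 was 2.28-fold (95% interval 2.05 to 2.53), Hnf4a 2.25-fold (2.11 to 2.39), Cebpa 2.21-fold (1.99 to 2.47) and Foxa3 1.83-fold (1.68 to 1.99) higher in KO than in WT cells. Their edgeR adjusted p-values were 1.31e-10, 7.52e-14, 3.35e-10 and 4.48e-10. Thus 4 of 9 were called higher, against 28.7% of all tested genes called and 13.7% called higher. Cebpb was higher in both KO libraries (88.2 ± 19.4 against 65.6 ± 3.23 CPM), by a log2 fold change of 0.43 that passed the adjusted p (edgeR, 0.0211) but not the fold threshold, and without KO stiff replicate 2 it was called (0.63).

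On the soft hydrogel 0 of 9 members were called by edgeR, against 6.67% of all tested genes, so that this count is near the background. DESeq2 called 0 as well. An unadjusted p under 0.05 was found for 4 of the 9, against 29.6% of all tested genes. By sign, 8 of the 9 were higher in KO soft and 1 was lower. Hnf4a was 1.14-fold higher in KO soft than in WT soft (95% interval 1.07 to 1.21, edgeR adjusted p = 0.00323) and Foxa3 1.15-fold (1.06 to 1.24, edgeR adjusted p = 0.0183), both under the fold threshold. Prox1 and Nr5a2 had log2 fold changes of 0.17 and 0.21 (edgeR adjusted p = 0.094 and 0.0505). Cebpa, at 90.4 ± 10.1 CPM in WT soft and 95.8 ± 6.91 in KO soft, overlapped between the genotypes.

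Markers of other liver cells also differed between the groups, but not all in the same direction. The summed level of 10 stellate cell and fibroblast markers was 37.1 to 37.6 CPM in WT soft, 24.9 to 26.8 in WT stiff, 53.0 to 54.2 in KO soft and 54.6 to 57.5 in KO stiff. That of 10 Kupffer cell and macrophage markers was 84.8 to 88.4, 60.1 to 64.9, 123 to 124 and 124 to 125 CPM. That of 10 endothelial markers was 78.3 to 83.9, 72.2 to 78.6, 98.2 to 98.3 and 97.4 to 104 CPM, with overlap between both WT groups. On the soft hydrogel 4 of 9 stellate, 2 of 9 endothelial and 4 of 10 Kupffer cell markers were called higher in KO than in WT, and 0 lower. Of the 9 factors 0 were called there, against 6.67% of all tested genes, a count near the background. On the stiff hydrogel 7 of 9 stellate, 7 of 9 endothelial and 8 of 10 Kupffer cell markers were called higher in KO. The counts called lower were 1, 1 and 0. Of the 9 factors 4 were called higher, against 13.7% of all tested genes. For the interaction 4 of 9, 4 of 9 and 4 of 10 markers were called positive, against 8.64% of all tested genes. Among the markers 0, 1 and 0 were called negative, and 4 of the 9 factors were called positive. Of the markers tested, 4 of 9 stellate, 4 of 9 endothelial and 5 of 10 Kupffer cell markers were called lower in WT stiff than in WT soft, against 9.26% of all tested genes. Col1a1 among the stellate and Flt4 among the endothelial markers were called higher (0.78 and 0.74 on the log2 scale), against 10.0% of all tested genes. Of the 10 hepatocyte markers, 4 were called lower in WT stiff (Tat, Asgr1, Cyp2e1 and Tdo2) and the other 6 were not called, with a median log2 fold change of -0.33. Their summed level, 88000 to 88600 CPM in WT soft, 90900 to 92500 in WT stiff and between 61000 and 61700 in both KO groups, was mostly Alb (81900 CPM in WT soft and 86600 in WT stiff). Cholangiocyte markers, with Cftr at 0 in every library, summed to 572 to 603, 622 to 627, 366 to 368 and 342 to 352 CPM, with Krt19 rising in WT from 2.13 ± 0.448 to 20.6 ± 0.638 CPM. The part of these shifts in the levels of the 9 factors was not tested.

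To see whether other factors of the same network behaved alike, 24 further liver transcription factors were examined, of which 22 passed the filter. In WT cells 6 of the 22 fell on the stiff hydrogel and the other 16 were not called, against 9.26% of all tested genes lower. Creb3l3, a fasting-induced regulator of lipid metabolism, fell by 1.05 on the log2 scale (edgeR adjusted p = 3.66e-12), and Klf15, a factor of amino acid and glucose metabolism, by 1.04 (edgeR adjusted p = 0.000143). Nr2f2 (COUP-TFII), which is also expressed in endothelial and stellate cells, fell by 0.88, Atf5 by 0.76, Ppara, the receptor that drives fatty acid oxidation in fasting, by 0.61, and Onecut2 by 0.59 (edgeR adjusted p = 0.000198, 1.6e-10, 0.00937 and 6.93e-08). The interaction was positive for these 6 and for Gata4 (0.52, edgeR adjusted p = 0.00726), against 8.64% of all tested genes. DESeq2 called 6 of these 7, without Ppara (DESeq2 adjusted p = 0.0858). The median log2 fold change of the 22 was -0.11 in WT, against -0.01 over all tested genes.

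In KO cells 0 of the 22 were called by edgeR on stiff against soft, with 3 at an unadjusted p under 0.05 and 0 by DESeq2. The share of all tested genes called by edgeR there was 0.0210%, so that a count of 0 is near the background. Creb3l3 had 5413 and 3683 counts in WT soft, 2116 and 1916 in WT stiff, 6100 and 5062 in KO soft and 5178 and 4905 in KO stiff, the same arrangement of groups as for Hnf4a. Of 5 further C/EBP family genes 4 were tested. Ddit3 (CHOP), a stress-induced inhibitor of other C/EBP proteins, fell in WT by 0.71 (edgeR adjusted p = 2.41e-06), and the other 3 were not called. On KO stiff against soft 0 of the 4 were called by edgeR, again near the background. An unadjusted p under 0.05 was found for 0, and 0 were called by DESeq2.

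Genes known as targets of HNF4A, C/EBP, FOXA, NR5A2 and ONECUT1 factors were then examined as 5 lists, and targets of PROX1 were not examined. The lists overlap: G6pc, for the last enzyme of glucose release, is in 4 of them. Their counts in WT stand against 9.26% of all tested genes called lower and 10.0% called higher. Of 19 tested HNF4A targets, 5 fell and 1 rose in WT cells. G6pc was lowest, with a fall of 1.73 on the log2 scale (edgeR adjusted p = 2.44e-12), and Pklr, the liver pyruvate kinase, highest, with a rise of 1.09 (edgeR adjusted p = 1.04e-13). Of 17 C/EBP targets, 6 fell, again led by G6pc, and 1 rose, Ass1 of the urea cycle (0.77, edgeR adjusted p = 1.05e-08). Of 13 FOXA targets, 5 fell and 8 were not called, from Igfbp1, an insulin-repressed secreted protein (-2.28, edgeR adjusted p = 6.41e-18), to Afp (0.44, edgeR adjusted p = 0.00149, under the fold threshold).

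Of 11 NR5A2 targets, 2 fell and 9 were not called, a count near the 9.26% of all genes. Cyp8b1, which sets the kind of bile acid made, was the lowest (-1.26, edgeR adjusted p = 3.69e-10), and the desaturase gene Fads2 the highest (0.36, edgeR adjusted p = 1.73e-06, under the fold threshold). Of 9 ONECUT1 targets, a list that contains Hnf4a and Foxa2 themselves, 4 fell and 5 were not called, with G6pc lowest and Trf highest (0.29, edgeR adjusted p = 8.89e-09, under the fold threshold). The list medians in WT were -0.24 for HNF4A and C/EBP targets, -0.41 for FOXA, -0.14 for NR5A2 and -0.30 for ONECUT1 targets. These stand against -0.01 over all tested genes. In KO cells 0 genes of any of the 5 lists were called by edgeR on stiff against soft, 0 by DESeq2, and 0 to 2 per list had an unadjusted p under 0.05. Of all tested genes 0.0210% were called by edgeR there, so that these counts of 0 are near the background. Most members of these lists were not called in WT either, such as 13 of 19 HNF4A targets and 10 of 17 C/EBP targets. Between the genotypes list genes were called in both directions. On the stiff hydrogel 5 HNF4A targets were higher and 6 lower in KO than in WT cells. The other lists had 5 and 5 for C/EBP, 5 and 3 for FOXA, 1 and 3 for NR5A2 and 3 and 1 for ONECUT1. Of all tested genes 28.7% were called there, 13.7% higher. On the soft hydrogel these counts, in the same order, were 1 and 4, 2 and 6, 3 and 3, 0 and 4, and 2 and 1, against 6.67% of all tested genes.

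**Figure D4:**
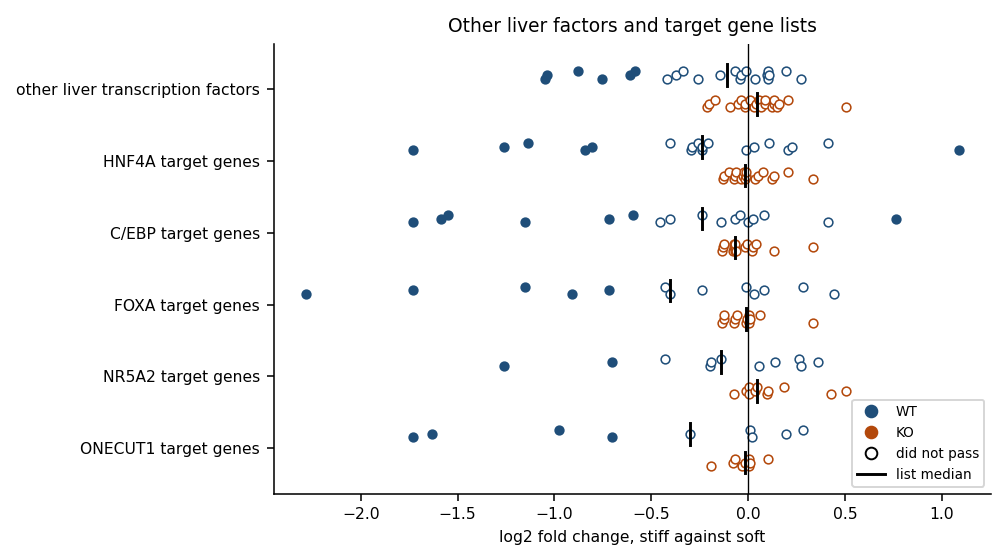
Log2 fold change on stiff against soft hydrogel of 22 other liver transcription factors and of 5 overlapping target gene lists, in WT (blue) and KO (orange) cells; each point is a gene, filled where it passed both thresholds, and bars are list medians. WT points reach -2.28 (Igfbp1) and 1.09 (Pklr), and no KO point passed, against 0.0210% of all tested genes.

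Last, the genes whose levels over the 8 libraries were most like those of the 4 factors that fell were found among 10029 genes with a mean of at least 100 counts, by Pearson's r of log2 CPM as a description. For Hnf4a these were Zfand2a (r = 0.9993) and Cd14 (r = 0.9992), for Foxa3 Igsf11 (0.9992) and Dgkd (0.9989), for Cebpa Fgf21 (0.9971) and Chn2 (0.9939), and for Prox1 Mctp2 (0.9993) and Senp6 (0.9985). The 8 points are 4 groups of 2 libraries, and in each of these factors the WT stiff libraries stand apart from the other 6.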

How the data were processed

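RNA of 8 libraries, 2 per group, was sequenced by the authors, aligned with HISAT2 2.0.5 and counted on genes with featureCounts. The authors deposited raw counts per gene with no normalization. Genome build mm9 is listed in the submitters' processing notes. Only 2.76% of 52073 genes have the position they have in the GENCODE reference of GRCm38, and the positions in the text are those of the deposited table. Counting rules for strand and multiply matching reads were not given in the sources used here.

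Testing used edgeR 4.0.16 in R 4.3.3: filterByExpr by group, TMM scaling (factors 0.978 to 1.02), and a quasi-likelihood fit of all 8 libraries with 1 term per group, with Benjamini-Hochberg adjustment over 14279 genes. CPM divides counts by the TMM-scaled library total, and log2 CPM used a prior count of 2. The common biological coefficient of variation was 0.0542, with 4 residual degrees of freedom. Alternatives were DESeq2 1.42.0, other scalings, filters and thresholds, a replicate block, and each library left out. The steps were tested on simulated data. Promoters came from RefSeq tables and shared sequence from GENCODE transcripts. Figures used matplotlib 3.10.9 in Python 3.11.15.

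All 9 members were named. From the further factor lists, genes called in WT or in the interaction could be named. From each target list the highest and lowest in WT were named, and for each member called in WT the 2 most correlated genes. Cell type markers named singly and Creb3l3 counts were chosen after their values were seen. The members and lists were chosen with earlier results of these data known.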

Additional observations from a re-analysis of the deposited data

Results flagged for a closer look

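Of the 9 factors, 4 responded differently to stiffness in WT and KO cells by the test of the difference itself, the interaction in the edgeR fit. On the log2 scale it was 0.98 for Hnf4a, 0.68 for Foxa3, 1.06 for Cebpa and 1.02 for Prox1. Each was lower in both WT stiff libraries than in both WT soft libraries, and not lower in KO stiff than in both KO soft libraries. No group had enough libraries for a test of single outlying libraries.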

How the results depend on the processing

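Other fits were DESeq2, both other scalings, both other filters, robust empirical Bayes and a fit of only the 4 libraries compared. The last was not made for the interaction, which needs all 4 groups. In each of these fits Hnf4a, Foxa3, Cebpa and Prox1 were called in WT and in KO against WT on the stiff hydrogel. The same 4 were called in the interaction wherever it was fitted, and 0 members were called in the other comparisons. Over these fits and with each library left out, log2 fold changes in WT ranged from -1 to -0.94 for Hnf4a and -0.68 to -0.6 for Foxa3. They ranged from -1.1 to -0.87 for Cebpa and -1.07 to -0.95 for Prox1. For Cebpb the log2 fold change in WT was -0.51 without WT soft replicate 1. Its interaction was 0.65 without that library and 0.57 without KO stiff replicate 2. In KO against WT on the stiff hydrogel Cebpb was at 0.63 without KO stiff replicate 2. A log2 threshold of 1 left 1 member in WT (Prox1), 2 in the interaction and 3 in KO against WT on the stiff hydrogel. With no minimum fold change 2 members (Hnf4a and Foxa3) were called in KO against WT on the soft hydrogel and 5 on the stiff one. With the replicate block 4 members were called in WT. Deviations of same-numbered libraries correlated between -0.101 and 0.0424, which cannot show whether such libraries came from the same animal. The block changed no call of a member. Over all genes, the 3 called in KO cells became 50 with no filter on low counts, 9 in a fit of only the 4 KO libraries, 1 with robust empirical Bayes or a log2 threshold of 1, and 1 to 8 with 1 library left out. Without a minimum fold and with a log2 threshold of 1, the 2754 genes called in WT became 5859 and 1244, the 2405 of the interaction 4192 and 1040, the 952 between genotypes on the soft hydrogel 2624 and 353, and the 4103 on the stiff one 7299 and 2097.

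Changes of direction were seen only for members not called in that comparison in the edgeR fit of all 8 libraries. Values that round to 0.00 were given no direction. With no filter on low counts, Hnf4a in KO was -0.01. With single libraries left out, log2 fold changes ranged in WT from -0.04 to 0.07 for Foxa2, -0.51 to 0.11 for Cebpb, -0.09 to 0.65 for Onecut1 and -0.11 to 0.04 for Nr5a2. In KO they ranged from -0.04 to 0.04 for Hnf4a, -0.01 to 0.14 for Cebpa and -0.10 to 0.35 for Cebpb. In the interaction they ranged from -0.08 to 0.04 for Foxa2 and -0.39 to 0.35 for Onecut1. In KO against WT they ranged from -0.02 to 0.20 for Cebpa and -0.24 to 0.39 for Cebpb on the soft hydrogel, and from -0.01 to 0.10 for Foxa2 and -0.65 to 0.09 for Onecut1 on the stiff one. The cause was not tested. Onecut1, with 18 to 32 counts, is limited by depth.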
